A study of Mus musculus with 8 samples.

Results

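The 10 genes Zbtb16, Fkbp5, Plin4, Tsc22d3, Sgk1, Per1, Hif3a, Pdk4, Klf9 and Nr3c1 were followed in injured mouse spinal cord, out of 54532 genes in the deposited count table. They are genes known to be switched on by glucocorticoid hormone, except Nr3c1, which encodes the glucocorticoid receptor itself. They were chosen by name, and 3 of them, Zbtb16, Fkbp5 and Plin4, were selected on their higher levels in 1 of the genotypes of these same libraries. The difference between genotypes is therefore given for the 10 genes as a description, with no p-value. All 10 had a row in the table and all 10 passed the filter on low counts, among 16537 genes that did. The cords came from 4 samples of genotype Tia1f/f, the control group, and 4 of genotype Tia1Nestin-CKO, the CKO group, all taken 7 days after spinal cord injury. By their names the first genotype carries the floxed Tia1 allele alone, and the second deletes Tia1 where Nestin, which neural progenitors express, has been active. Cells outside that lineage would keep the gene. The labels give no age, strain, injury level or hour of collection, name no glucocorticoid treatment and do not say that each sample was a separate mouse, so p-values below measure the spread between samples.

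Libraries held 14752733 to 17802884 counts. The library labelled control 1 stood apart from the other 7 on the first principal component, at -94.97 against 5.73 to 21.51. That library also held the fewest counts, and the fewest genes with counts, at 18884 against 22434 to 23414. Its share of mitochondrial counts was the highest, at 6.97% against 3.16 to 6.37%. Whether its quality differed was not tested, and results that rest on this library are given with and without it. Tia1, the targeted gene, had 24.4 to 41.9 CPM in control libraries against 23.4 to 32.1 CPM in CKO (counts per 1000000 after scaling of the libraries, called CPM throughout). The groups overlapped, and an exact two-sided permutation test over 70 assignments gave p = 0.20. Directions between genotypes therefore rest on the labels.

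In mice the main glucocorticoid is corticosterone, which the adrenal gland releases with the hour of the day and under stress. It enters cells and binds the receptor, which waits in the cytoplasm with the chaperone Hsp90 and its partners, then moves to the nucleus and binds DNA. The preferred DNA element is a pair of inverted half-sites, AGAACA and TGTTCT, 3 bases apart. Among the strongest targets are genes that feed back on the receptor, such as Fkbp5, and genes that damp inflammation, such as Tsc22d3. Microglia, astrocytes, oligodendrocytes and vessel cells all carry the receptor.

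The promoter sequences of RefSeq on GRCm38.p6, 250 bases before to 50 bases after a start site, were searched for these half-sites. Of the 10 genes 8 had at least 1 promoter in the table, 16 promoters in all. The pair of half-sites 3 bases apart was in 1 of the 16, at Sgk1, and in 3 of 32851 promoters of all genes (0.00913%). It lay at chr10:21993701-21993715 on the plus strand, 189 bases before the start site of that promoter, and read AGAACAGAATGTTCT. A half-site alone, AGAACA or TGTTCT on the printed strand, which covers both strands because each is the reverse complement of the other, was in 4 of the 16 promoters, 3 of Sgk1 and 1 of Tsc22d3, and in 19.0% of all promoters. CACGTG, the E-box bound by the clock proteins, reads the same on both strands and was in 3 of the 16, at Fkbp5, Sgk1 and Per1, against 7.15% of all. A match is a run of letters and no measure of binding, and a window without a match says nothing of elements farther away. Promoters of 5 genes are shown because the results turn on these genes, in lower case with half-sites and E-boxes in capitals. Sgk1 had 6 promoters, Tsc22d3 3 and Per1 2, and for each of these genes 1 window that held a match is printed. In the printed window of Sgk1 the E-box and the first TGTTCT share 2 letters. The Fkbp5 window is chr17:28486100-28486399 on the minus strand, the Per1 window chr11:69098699-69098998 on the plus strand, the Sgk1 window chr10:21993640-21993939 on the plus strand, the Tsc22d3 window chrX:140600473-140600772 on the minus strand and the Plin4 window chr17:56109733-56110032 on the minus strand.
Fkbp5: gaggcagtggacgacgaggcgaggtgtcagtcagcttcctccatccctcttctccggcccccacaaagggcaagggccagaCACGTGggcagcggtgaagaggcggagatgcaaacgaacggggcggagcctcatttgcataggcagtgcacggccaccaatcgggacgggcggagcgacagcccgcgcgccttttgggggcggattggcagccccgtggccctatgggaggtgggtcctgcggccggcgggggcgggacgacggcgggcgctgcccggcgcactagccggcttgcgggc
Per1: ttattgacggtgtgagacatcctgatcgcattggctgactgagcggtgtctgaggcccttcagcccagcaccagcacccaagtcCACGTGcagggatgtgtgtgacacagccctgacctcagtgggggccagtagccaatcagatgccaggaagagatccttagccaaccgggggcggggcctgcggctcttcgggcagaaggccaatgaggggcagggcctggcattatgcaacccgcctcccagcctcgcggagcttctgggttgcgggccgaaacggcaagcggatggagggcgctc
Sgk1: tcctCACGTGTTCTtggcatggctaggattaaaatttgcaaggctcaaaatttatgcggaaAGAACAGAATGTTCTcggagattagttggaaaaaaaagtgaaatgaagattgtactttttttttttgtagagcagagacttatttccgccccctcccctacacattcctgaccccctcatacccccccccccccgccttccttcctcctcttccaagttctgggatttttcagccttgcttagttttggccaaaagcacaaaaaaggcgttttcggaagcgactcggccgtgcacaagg
Tsc22d3: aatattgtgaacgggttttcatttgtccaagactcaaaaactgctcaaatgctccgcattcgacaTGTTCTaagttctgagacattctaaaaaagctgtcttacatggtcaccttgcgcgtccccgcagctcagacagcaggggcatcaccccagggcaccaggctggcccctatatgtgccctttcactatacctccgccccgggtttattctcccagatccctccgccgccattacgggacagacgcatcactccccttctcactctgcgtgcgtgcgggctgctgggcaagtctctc
Plin4: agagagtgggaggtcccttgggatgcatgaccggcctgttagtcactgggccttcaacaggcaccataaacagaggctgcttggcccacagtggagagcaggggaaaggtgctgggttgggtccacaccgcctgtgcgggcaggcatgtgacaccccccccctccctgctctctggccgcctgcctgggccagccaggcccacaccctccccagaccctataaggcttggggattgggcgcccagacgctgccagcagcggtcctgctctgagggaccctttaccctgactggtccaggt

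By level per gene length, the deposited FPKM over all 8 libraries, Sgk1 was the highest of the 10, at 66.7 ± 14.3 FPKM (SD, n = 8), and Tsc22d3 came next at 31.7 ± 5.92. Their ranges over the libraries did not overlap, nor did those of Tsc22d3 and the third gene, Klf9, at 16.7 ± 3.17. From Klf9 downward each gene's range overlapped that of the next. Nr3c1 had 12.5 ± 2.54 FPKM, Fkbp5 11.2 ± 4.27, Pdk4 6.84 ± 1.81 and Per1 5.94 ± 1.75. Plin4 (2.42 ± 2.31) and Zbtb16 (2.19 ± 1.02) could not be ordered, with Plin4 above Zbtb16 in 3 of 8 libraries. Hif3a was the lowest, at 0.739 ± 0.254 FPKM, on 57 to 142 counts a library, so its values carry the most counting error.

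Between genotypes the 10 genes did not share a direction. The mean was higher in CKO for 6, namely Plin4, Zbtb16, Fkbp5, Hif3a, Pdk4 and Klf9, and lower for 4, namely Per1, Sgk1, Nr3c1 and Tsc22d3. The median log2 fold change, CKO minus control, was 0.05 over the 10 genes and -0.01 over all 16537 genes tested. Of all genes tested 48.1% had a higher mean in CKO. Plin4, Zbtb16 and Fkbp5 were selected for their higher level in CKO, which in part fixes the count of 6 and the median. Nothing is read from either. No gene of the whole table passed an adjusted p of 0.05 in edgeR's quasi-likelihood test, so 0 of the 10 did, beside a background of 0% called, and the smallest adjusted p was 1.00. An unadjusted p under 0.05 was found for 234 genes, and DESeq2 called 1 gene, which is not among the 10. For 0 of the 10 genes did all CKO libraries lie above all control libraries, beside 0.701% of the genes tested, and for 0 did all lie below, beside 0.490%. In these samples of whole tissue, fewer cells of a type and less RNA per cell cannot be told apart.

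**Figure D1:**
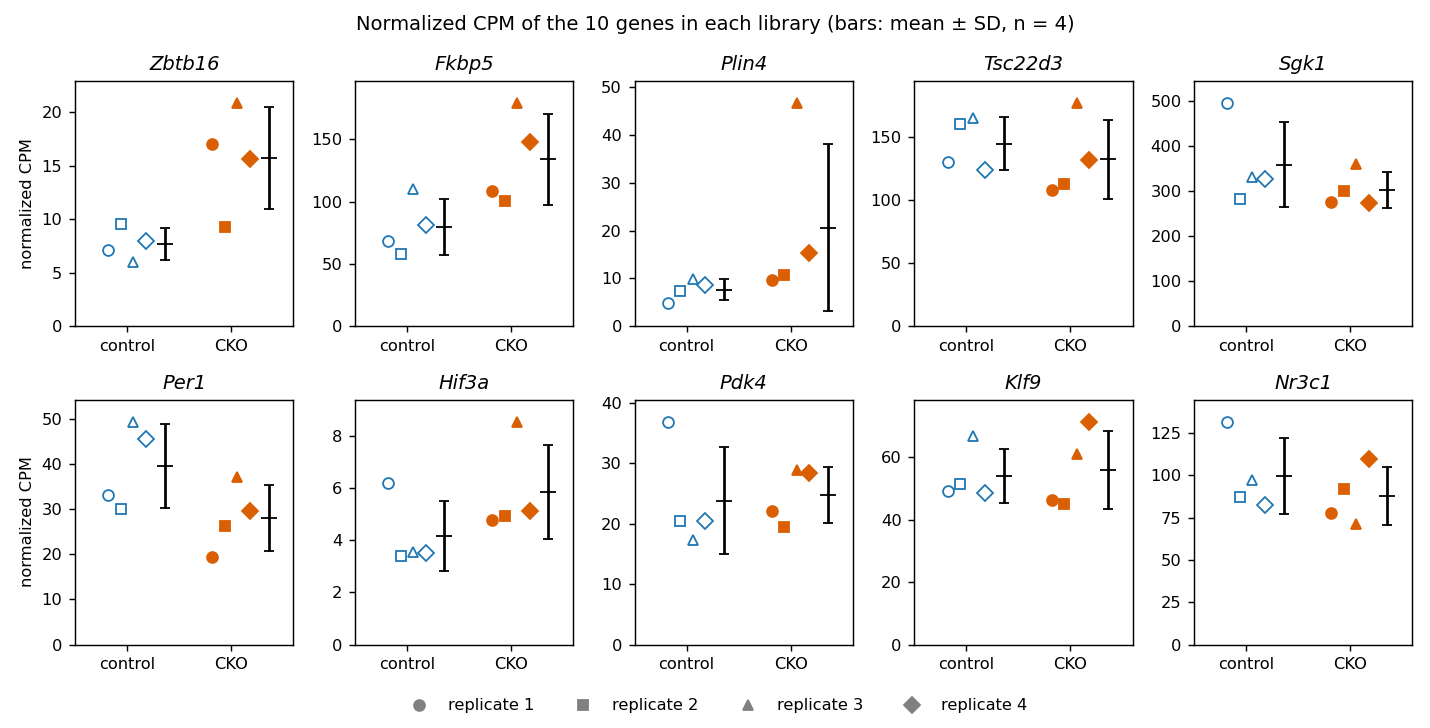
Normalized CPM (y axis, linear from 0, one scale per gene) of each of the 10 genes in the 4 control libraries (open blue) and 4 CKO libraries (filled orange), with the marker shape giving the replicate number and black bars the mean ± SD. Plin4 in the library labelled CKO 3, at 46.6 CPM, stands far above the other libraries, and no gene separates the genotypes without overlap.

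The receptor came first in the pathway. Nr3c1 (chromosome 18, 39410545 to 39491301, minus strand, coordinates as deposited) had 131.7, 87.1, 97.3 and 82.6 CPM in control 1 to 4 and 77.8, 92.1, 71.3 and 109.6 CPM in CKO 1 to 4. The library labelled control 1 was the highest of the 8 and that labelled CKO 3 the lowest, and the groups overlapped. The means were 99.7 ± 22.2 and 87.7 ± 17.0 CPM (SD, n = 4 each), a log2 fold change of -0.18 (SE 0.19, 95% interval -0.60 to 0.24). Without the library labelled control 1 it was -0.02, without that labelled CKO 3 -0.09 and without that labelled CKO 4 -0.31.

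Of the 15 genes listed for the receptor's partners and hormone supply, 14 were tested, 0 passed in either direction, and 6 had a higher mean in CKO. The chaperones that hold the receptor were abundant, with Hspa8 at 1412 ± 169 CPM (SD, n = 4) for control against 1525 ± 333 CPM for CKO and Hsp90ab1 at 1132 ± 114 and 1228 ± 120 CPM. Hsp90aa1, the stress-inducible form of Hsp90, had 1026 ± 494 and 726 ± 227 CPM, for a log2 fold change of -0.50 (SE 0.32), and its co-chaperone Ptges3 had 153 ± 35.1 and 141 ± 17.3 CPM. The mineralocorticoid receptor gene Nr3c2, whose protein also binds corticosterone, had 11.8 ± 1.94 and 10.8 ± 2.96 CPM. Hsd11b1, the enzyme that regenerates active corticosterone inside cells, had 8.83 ± 3.79 and 7.50 ± 2.83 CPM, for a log2 fold change of -0.24 with an interval of -0.98 to 0.51. Hsd11b2, the enzyme that inactivates the hormone, had at most 1.02 CPM in any library and was not tested.

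Fkbp5 encodes a co-chaperone that lowers the receptor's affinity for hormone and is a standard readout of receptor activity. Fkbp5 (chromosome 17, 28399094 to 28517527, minus strand) had 68.5, 57.7, 110.5 and 81.3 CPM in control libraries against 108.4, 100.7, 179.0 and 147.8 CPM in CKO. The libraries labelled CKO 3 and CKO 4 were the highest, but that labelled control 3 stood above both of the other CKO libraries. The means were 79.5 ± 22.8 and 134 ± 36.4 CPM, for a log2 fold change of 0.75 (SE 0.24, interval 0.23 to 1.28), and this difference was among those that chose the genes. Its relative Fkbp4, a co-chaperone that helps the receptor reach the nucleus, ran from 68.0 to 146.8 CPM in control libraries against 108.9 to 142.0 CPM in CKO.

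Zbtb16 encodes PLZF, a zinc finger repressor of transcription, and its level was also used to choose the genes. Zbtb16 (chromosome 9, 48654297 to 48836222, minus strand) had 7.09, 9.57, 5.99 and 8.00 CPM in control libraries against 17.0, 9.30, 20.8 and 15.7 CPM in CKO. The library labelled CKO 2 lay below that labelled control 2, and the other 3 CKO libraries lay above every control library. The means were 7.66 ± 1.51 and 15.7 ± 4.80 CPM, for a log2 fold change of 1.04 (SE 0.26, interval 0.47 to 1.601). PLZF also marks natural killer T cells, so lymphocyte markers were measured. The sum of 8 T and NK cell markers ran from 23.3 to 48.4 CPM in control libraries against 20.8 to 33.0 CPM in CKO, most of it Il7r, and Cd3e had 2 to 10 counts in each library.

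The mean of Tsc22d3, which encodes the anti-inflammatory protein GILZ, was lower in CKO, unlike that of Fkbp5, which was selected as higher. Tsc22d3 (chromosome X, 140539528 to 140600659, minus strand) had 130.3, 160.8, 165.3 and 123.7 CPM in control libraries against 108.5, 112.8, 177.1 and 132.4 CPM in CKO. The highest library and the lowest were both CKO libraries, those labelled CKO 3 and CKO 1. Means of 145 ± 21.0 and 133 ± 31.4 CPM gave a log2 fold change of -0.13 (SE 0.18, interval -0.54 to 0.28), and with each library left out it ran from -0.30 without that labelled CKO 3 to -0.04 without that labelled CKO 1.

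Klf9, a Krüppel-like transcription factor gene, had 49.0, 51.5, 66.9 and 48.5 CPM in control libraries against 46.3, 44.8, 61.0 and 71.3 CPM in CKO. The libraries labelled CKO 4 and control 3 were the highest, 1 of each genotype. Means of 54.0 ± 8.73 and 55.9 ± 12.6 CPM gave a log2 fold change of 0.05 (SE 0.18, interval -0.36 to 0.46), which changed sign, to -0.09, without the library labelled CKO 4. The related Klf13 and Klf15 had log2 fold changes of 0.07 and -0.32, with SE 0.14 and 0.21, and did not pass.

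Sgk1 encodes a kinase that acts on ion channels and transporters, and 1 of its 6 promoters held the full element printed above. Sgk1 (chromosome 10, 21882184 to 21999903, plus strand) had 494.7, 281.2, 330.9 and 327.6 CPM in control libraries against 275.2, 299.8, 359.4 and 273.0 CPM in CKO. The library labelled control 1 was far above the rest, and the other 7 lay between 273.0 and 359.4 CPM. Means of 359 ± 93.5 and 302 ± 40.2 CPM gave a log2 fold change of -0.25 (SE 0.19, interval -0.67 to 0.17), and -0.05 without the library labelled control 1.

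Per1 encodes a repressor of the circadian clock that glucocorticoid also induces directly. Per1 (chromosome 11, 69095217 to 69109960, plus strand) had 33.2, 30.0, 49.3 and 45.4 CPM in control libraries against 19.5, 26.2, 37.0 and 29.5 CPM in CKO. All 4 CKO libraries lay below the control mean and 3 lay below every control library, while that labelled CKO 3 stood above 2 of the control libraries. The means were 39.5 ± 9.31 and 28.0 ± 7.29 CPM, for a log2 fold change of -0.49 (SE 0.23, interval -0.99 to 0.0021), the lowest of the 10 genes.

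The 18 other clock genes listed were all tested, 0 passed in either direction, and 6 were higher on average in CKO, and their median log2 fold change was -0.12. Per3, a partner of Per1, had 15.02, 12.1, 14.5 and 12.4 CPM in control libraries against 7.14, 9.56, 8.74 and 11.5 CPM in CKO, with no overlap. Its log2 fold change was -0.55 (SE 0.19), with an edgeR adjusted p of 1.00, and Per3 was chosen after its values were seen. Tef, a PAR-domain factor under clock control, also had no overlap, at 129 ± 10.2 and 109.8 ± 6.07 CPM. These were 2 of the 18 clock genes, beside 0.490% of all genes tested with every CKO library below every control library. The lists were chosen with earlier results of these data known, so nothing is read from that count. The groups overlapped in Dbp, Nr1d1, Arntl and Per2. Dbp had 30.1 ± 13.7 and 27.0 ± 2.37 CPM, and Nr1d1 22.5 ± 2.78 and 23.0 ± 6.27 CPM. Arntl had 11.2 ± 2.53 and 11.7 ± 1.86 CPM, and Per2 8.14 ± 3.05 and 8.82 ± 1.56 CPM. Dbp was lowest, at 10.3 CPM, in the library labelled control 1 and ran from 24.6 to 39.3 CPM in the other 7. The abundant clock regulators Bhlhe41, Bhlhe40 and Nr1d2 had log2 fold changes of 0.001, 0.18 and -0.30. The hour of collection was not given, and its part in the level of Per1 was not tested.

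Plin4, Pdk4 and Hif3a act in lipid, fuel and oxygen metabolism. Plin4 (chromosome 17, 56100591 to 56109803, minus strand) encodes a coat protein of lipid droplets and had 4.73, 7.43, 9.77 and 8.57 CPM in control libraries against 9.67, 10.7, 46.6 and 15.4 CPM in CKO. The library labelled CKO 3 held 774 of its counts, against 68 to 273 in the others, and that labelled CKO 1 lay just below that labelled control 3. Means of 7.62 ± 2.15 and 20.6 ± 17.5 CPM gave a log2 fold change of 1.43 (SE 0.48, interval 0.38 to 2.48), and 0.64 without the library labelled CKO 3. This difference, too, was among those that chose the genes. In the GENCODE M21 annotation, 17 exon bases of Plin4 (0.294%) are shared with Hdgfl2 on the other strand, and no other gene of the 10 shares exon bases with a neighbour.

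Pdk4 encodes a kinase that shuts off the entry of pyruvate into mitochondrial oxidation. It had 36.8, 20.5, 17.4 and 20.4 CPM in control libraries against 22.2, 19.5, 28.9 and 28.4 CPM in CKO. The library labelled control 1 was the highest, and the groups overlapped over most of their range. Means of 23.8 ± 8.83 and 24.7 ± 4.66 CPM gave a log2 fold change of 0.06 (SE 0.24, interval -0.48 to 0.60), 0.35 without the library labelled control 1 and -0.06 without that labelled control 3.

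Hif3a, a hypoxia-inducible factor subunit that can restrain the other HIF factors, had 6.19, 3.39, 3.55 and 3.52 CPM in control libraries against 4.78, 4.94, 8.56 and 5.13 CPM in CKO. All 4 CKO libraries lay above 3 of the control libraries, and that labelled control 1 stood above all CKO libraries but that labelled CKO 3. Means of 4.16 ± 1.35 and 5.85 ± 1.81 CPM gave a log2 fold change of 0.49 (SE 0.29, interval -0.15 to 1.14). It was 0.75 without the library labelled control 1 and 0.26 without that labelled CKO 3.

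Plin4 and Pdk4 are strongly expressed in muscle or fat, so the markers of both tissues were measured in each library. The sum of 9 skeletal muscle markers was 126, 44.2, 673 and 26.8 CPM in control 1 to 4 and 440.3, 17.3, 349 and 52.7 CPM in CKO 1 to 4, and Tnnc2 was at 0 in all. The muscle sum was highest in the library labelled control 3, where Plin4 had 9.77 CPM and Zbtb16 5.99 CPM. It was higher in that labelled CKO 1 than in that labelled CKO 3, where Plin4 had 9.67 and 46.6 CPM in turn. The sum of 8 adipocyte markers ran from 17.0 to 79.3 CPM in control libraries against 27.4 to 44.9 CPM in CKO, most of it Fabp4, which vessels and macrophages also express. Lep was at 0 in all libraries, Plin1 had 1 to 22 counts and Adipoq 0 to 19. The library labelled CKO 3 held 2 counts of Plin1 and 8 of Adipoq. The part of muscle or fat RNA in the levels of Plin4, Pdk4, Zbtb16 and Hif3a was not tested.

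**Figure D2:**
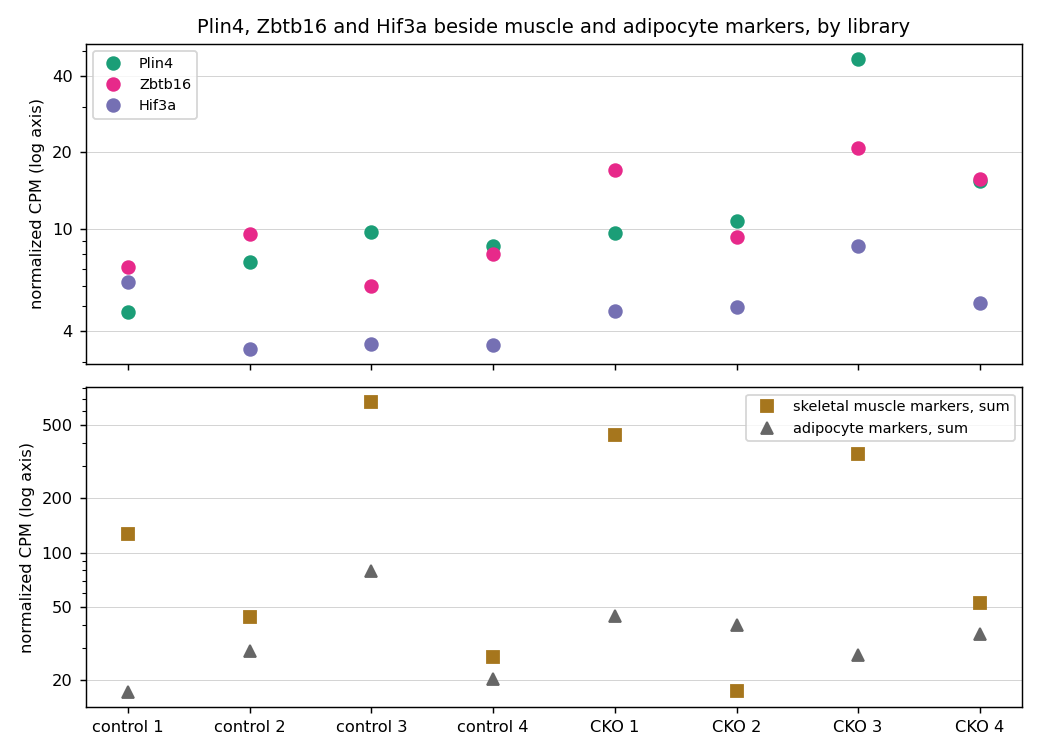
Normalized CPM on log axes for each of the 8 libraries, with Plin4, Zbtb16 and Hif3a above and the summed markers of skeletal muscle and of adipocytes below. The muscle sum is highest in the libraries labelled control 3, CKO 1 and CKO 3, and Plin4 is highest in that labelled CKO 3, at 46.6 CPM. The part of muscle RNA in the level of Plin4 was not tested.

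**Figure D3:**
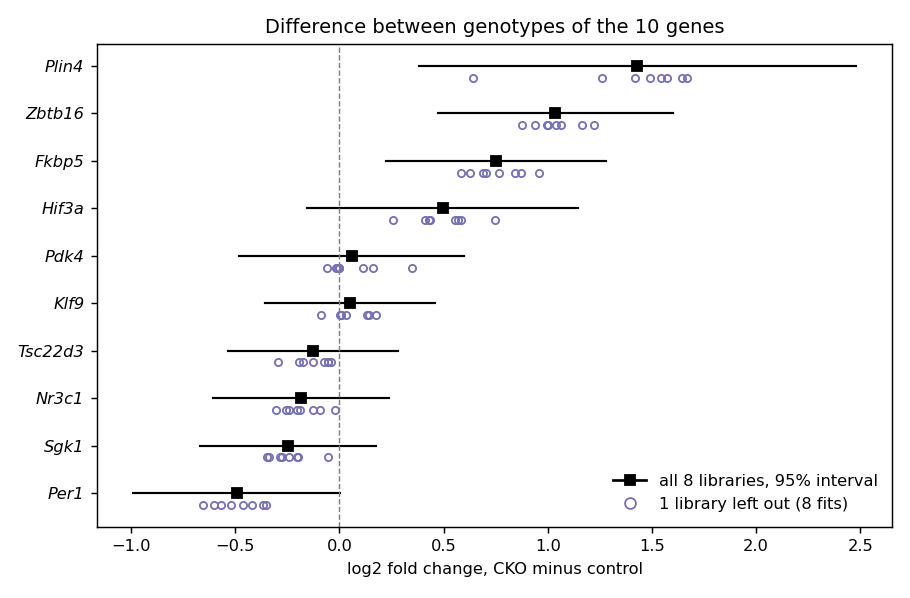
Log2 fold change, CKO minus control, of the 10 genes (x axis), with squares and lines for the estimate and 95% interval from all 8 libraries and open circles for the fits that each leave out 1 library. Plin4 is at 1.43 and at 0.64 without the library labelled CKO 3, and Pdk4 and Klf9 change sign.

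Other genes known to be induced by glucocorticoid were taken from a list of 28, all of which were tested. Of these 0 passed in either direction, and 19 (67.9%) had a higher mean in CKO, against 48.1% of all genes tested. The median log2 fold change was 0.10, against -0.01 over all genes tested. Per2 and Angptl4 of this list are counted again in other lists. The lists were chosen with earlier results of these data known, so nothing is read from this count or from those of the other gene lists. The most abundant were the metallothionein gene Mt1, at 1653 ± 754 and 1683 ± 445 CPM, and the glutamine synthetase gene Glul of astrocytes, at 1210 ± 148 and 1310 ± 272 CPM. Anxa1, an anti-inflammatory annexin, had 141 ± 69.7 and 155 ± 68.9 CPM, and the cell cycle inhibitor Cdkn1a 83.9 ± 18.2 and 104 ± 14.8 CPM. The list had 1 gene whose genotypes did not overlap, beside 0.701% of all genes tested with every CKO library above every control library. This gene was the lipocalin Lcn2, which inflammation also induces, at 47.3 ± 11.8 and 99.0 ± 46.3 CPM. Neutrophils also carry it, and it was highest, at 164 CPM, in the library labelled CKO 2, where the neutrophil markers summed to 1926 CPM against 267 to 768 CPM in control. In the libraries labelled CKO 1, CKO 3 and CKO 4 Lcn2 had 61.9, 99.2 and 70.9 CPM. The neutrophil sums there were 694, 545 and 542 CPM, within the control range. The top of that range was the library labelled control 1. Without it the control range was 267 to 661 CPM, and the library labelled CKO 1 lay above it. The part of neutrophils in the level of Lcn2 was not tested. Genes with the opposite sign included the mTOR inhibitor Ddit4, at 68.4 ± 10.6 and 51.1 ± 10.7 CPM, and Arl4d, a small GTPase gene, at 10.8 ± 1.84 and 5.76 ± 2.41 CPM. Lcn2, Ddit4 and Arl4d were named after their values were seen, and each had an edgeR adjusted p of 1.00.

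Plin4 and Pdk4 also respond to the fatty acid receptors called PPARs, and Hif3a to low oxygen, so lists of both responses were counted. Of 10 PPAR-responsive lipid genes 0 passed and 8 were higher on average in CKO, and their median log2 fold change was 0.14. Plin2, the main lipid droplet coat protein of foamy macrophages, had 762 ± 278 and 827 ± 119 CPM, and Cd36, a fatty acid uptake receptor, 435 ± 237 and 404 ± 167 CPM. Cpt1a, which lets fatty acids into mitochondria, had a log2 fold change of 0.13 (SE 0.17). Of 12 hypoxia-induced genes 0 passed and 8 had a higher mean, with a median of 0.09. Among them Ldha had 448 ± 106 and 491 ± 74.8 CPM, Pgk1 443 ± 96.9 and 494 ± 91.4 CPM, and Ndrg1 251 ± 27.4 and 263 ± 40.7 CPM. The oxygen sensor gene Egln1 had a log2 fold change of 0.03 (SE 0.12).

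Close relatives of the 10 genes gave a further reference. Of 24 paralogs 23 were tested, 0 passed and 10 were higher on average in CKO, and their median log2 fold change was -0.03. Tsc22d1 and Tsc22d4, relatives of Tsc22d3, had log2 fold changes of -0.05 and 0.12, and Hif1a, the relative of Hif3a that drives the main response to low oxygen, had 203 ± 59.7 and 182 ± 23.6 CPM.

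Single libraries also differed in these genes. The library labelled CKO 3 was the highest of the 8 for 5 genes, namely Zbtb16, Fkbp5, Plin4, Tsc22d3 and Hif3a. The first 3 of these were selected for their higher level in CKO, so a CKO library at the top is in part fixed by that choice, and nothing is read from the count. The library labelled control 1 was the highest for 3, namely Sgk1, Pdk4 and Nr3c1, and for 27.5% of all genes tested.

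To ask whether the genes vary together without using the difference between genotypes, each gene's log2 CPM was taken as a deviation from the mean of its own genotype. Fkbp5 was compared with the other 9 genes over the 8 libraries by an exact two-sided permutation of libraries within genotype. Fkbp5, Plin4 and Zbtb16 were selected on their CKO levels in these same libraries. A single high CKO library, such as that labelled CKO 3, stays in the deviations. The p-values of pairs that hold any of these genes are therefore not free of that selection. After adjustment over the 9 pairs, 0 passed 0.05 by r and 0 by rho, whose adjusted p were 0.22 to 0.98. Per1 followed Fkbp5 most closely, with a deviation of the same sign in 8 of 8 libraries, Pearson's r of 0.88 (permutation p = 0.010, adjusted p = 0.094) and Spearman's rho of 0.83 (permutation p = 0.024, adjusted p = 0.22). Without the libraries labelled control 3 and CKO 3, which lay farthest out for Fkbp5, r was 0.75. Per1 and Fkbp5 deviated in the same direction within genotypes, in a relation that did not pass after adjustment. Between genotypes their means differed in opposite directions. Fkbp5 was selected as higher in CKO, and the interval of Per1 included 0 (-0.99 to 0.0021), so nothing is read from that contrast.

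Klf9 had r = 0.79 with Fkbp5 (permutation p = 0.064, adjusted p = 0.19; rho 0.67, p = 0.11) and the same sign in 7 of 8 libraries, and r was 0.68 without the libraries labelled control 3 and CKO 3. Plin4 had r = 0.76 (permutation p = 0.024, adjusted p = 0.11; rho 0.62, p = 0.13), which was 0.46 without them. Tsc22d3 had r = 0.62 (permutation p = 0.14, adjusted p = 0.31; rho 0.50, p = 0.25), which was -0.06 without them, so that relation rests on those libraries. Zbtb16, which like Fkbp5 was selected for its higher level in CKO, had r = 0.15 with Fkbp5 within genotypes (permutation p = 0.76, adjusted p = 0.87). Its rho was -0.05 (permutation p = 0.94). Nr3c1 had r = -0.12 (permutation p = 0.77, adjusted p = 0.87; rho -0.10, p = 0.86). Sgk1, Hif3a and Pdk4 had r of 0.19, 0.29 and 0.04 with Fkbp5, with permutation p of 0.70, 0.45 and 0.91, adjusted p of 0.87, 0.81 and 0.91, rho of 0.31, 0.62 and 0.02 and rho permutation p of 0.50, 0.15 and 0.98. Without the 2 farthest libraries these r were 0.06, 0.07 and 0.34, and without the library labelled control 1 they were 0.69, 0.64 and 0.41.

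**Figure D4:**
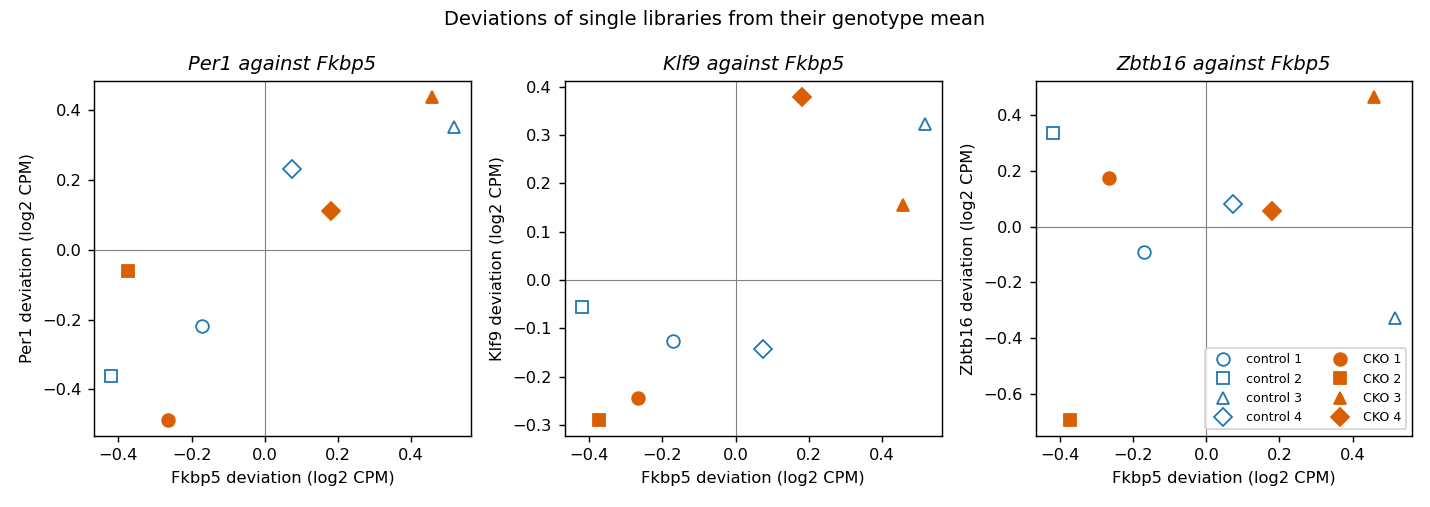
Deviation of Fkbp5 from its genotype mean (x axis, log2 CPM) against that of Per1, Klf9 and Zbtb16 (y axes, log2 CPM), 1 point per library, open blue for control and filled orange for CKO. Per1 shares the sign of Fkbp5 in 8 of 8 libraries, while Zbtb16 does so in 5.

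All 45 pairs of the 10 genes were then computed in the same way, which was decided on once values had been seen. Of these 36 had a positive r, with a median of 0.25. After adjustment over the 45 pairs 0 passed, with 6 under an unadjusted permutation p of 0.05. The pairs share the same 10 genes and 8 libraries, and no share over pairs of other genes was computed. Nothing is read from the count of positive pairs or the count under 0.05. The pair of highest r was Sgk1 and Hif3a, at 0.92 (permutation p = 0.012, adjusted p = 0.25; rho 0.64, p = 0.13), and r was 0.45 without the 2 libraries farthest out for Sgk1 and 0.84 without the library labelled control 1. Plin4 and Tsc22d3 had 0.86 (permutation p = 0.024, adjusted p = 0.25; rho 0.74, p = 0.071), and 0.58 without the 2 farthest out for Plin4. Without the library labelled control 1, Plin4 and Hif3a, at r = 0.37 with all libraries, had r = 0.98 over 7 libraries (permutation p = 0.0069, the smallest these orders can give, adjusted p = 0.21; rho 0.96, p = 0.0069), and r was 0.85 with the 2 farthest left out as well. Nr3c1 had a negative r with 5 of the other 9 genes, the lowest being -0.52 with Plin4. Without the library labelled control 1, where Nr3c1 was highest, r was negative with 6, the lowest being -0.55 with Hif3a. That with Sgk1 went from 0.40 to -0.49 and that with Pdk4 from 0.54 to -0.12.

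**Figure D5:**
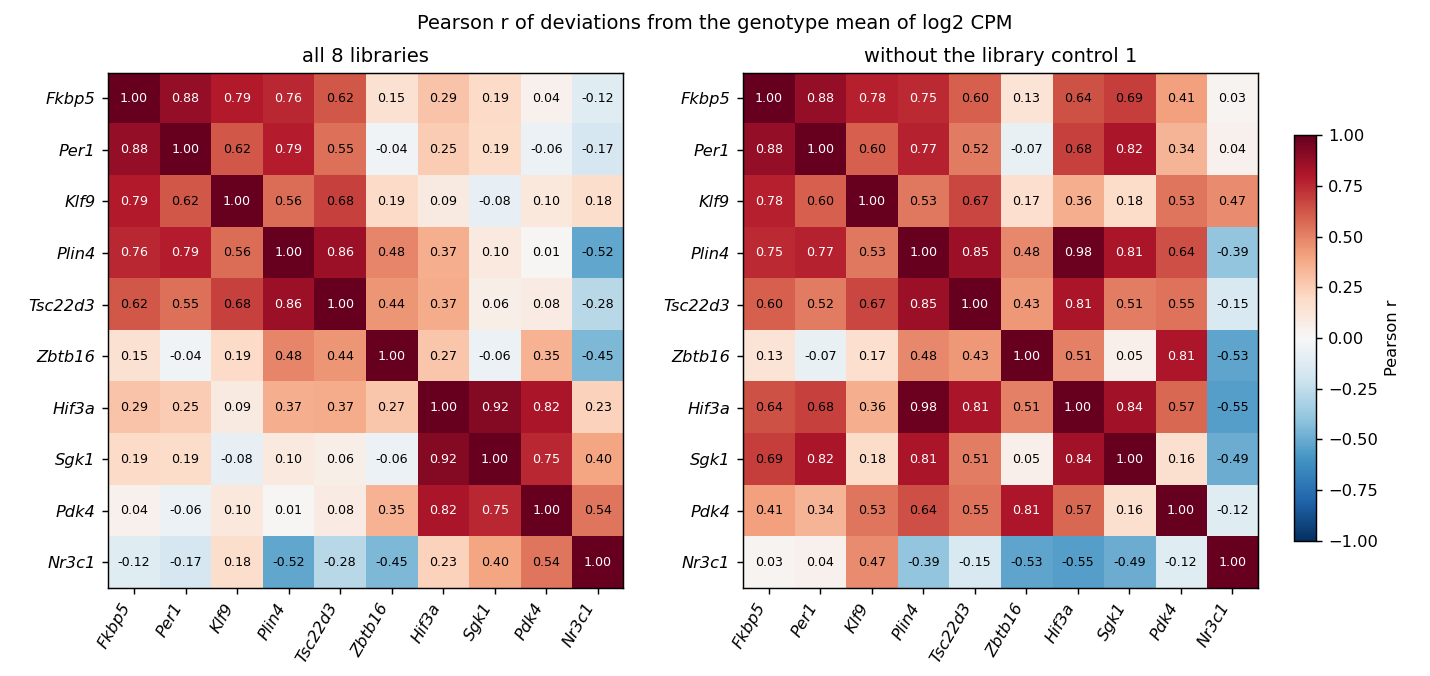
Pearson's r between the 10 genes of deviations from the genotype mean of log2 CPM, over 8 libraries (left) and without the library labelled control 1 (right), with colour from -1 to 1. Fkbp5 and Per1 have r = 0.88 in both, while Plin4 and Hif3a go from 0.37 to 0.98.

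Likeness was also ranked over the 15493 other tested genes with a mean of at least 1 CPM, as a description with no test. Per1 was number 32 in likeness to Fkbp5, Klf9 190, Plin4 292 and Tsc22d3 984, while Zbtb16 was number 5859 and Nr3c1 9276. Among the genes nearest to Fkbp5 were Rps4l and Id3, each with r of 0.95 and rho of 0.95 over 8 libraries. Plin4 was number 22 in likeness to Tsc22d3, behind Mon1b (r = 0.96, rho = 0.98), Zfp410 (0.93, 0.88) and Rasl12 (0.92, 0.90). No gene of the 10 was near to Zbtb16, the closest being Plin4 at number 1851, and its nearest genes were Klhl8 (r = 0.96, rho = 0.88), Pla2g3 (0.96, 0.95) and Nxph4 (0.95, 0.98).

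Cell type markers were checked as a measure of tissue content. Markers of astrocytes, oligodendrocytes, macrophages and neurons were present in all 8 libraries. Over the libraries labelled control 1 to 4 the sum of 6 neuron markers ran from 732 to 2032 CPM, against 814 to 1043 CPM in CKO, and 0 of the 6 were higher on average in CKO, their log2 fold changes having a median of -0.35. The sum of 6 endothelial markers ran from 80.9 to 152 CPM, against 119 to 134 CPM. The sum of 8 neutrophil markers was 267 to 768 CPM in the control group and 542 to 1926 CPM in the CKO group, with the highest value in the library labelled CKO 2, where Zbtb16 was lowest of the CKO group and Fkbp5 had 100.7 CPM. In the libraries labelled CKO 1, CKO 3 and CKO 4 the neutrophil sum was 694, 545 and 542 CPM, within the control range. Without the library labelled control 1 the control range was 267 to 661 CPM, and that labelled CKO 1 lay above it. All 8 neutrophil markers had a higher mean in CKO, at a median log2 fold change of 0.71. Of these 8 markers 0 passed the test, and 0 of the 6 neuron markers did. The sum of 6 meningeal fibroblast markers was highest in the library labelled control 3, at 3700.1 CPM, and that of CKO 4, at 3164 CPM, the 2 libraries where Klf9 was highest. The part of these cell types in the values of the 10 genes was not tested.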

How the data were processed

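RNA-seq of 8 injured spinal cord samples was analysed from read counts per gene, which the authors deposited as whole numbers without normalization. Tools named in the submitters' processing notes, with no roles, are DESeq2 1.20.0, featureCounts 1.5.0-p3, HISAT2 2.0.5, fastp and CASAVA 1.8. Those notes name a human genome build, while the identifiers are of mouse genes, and 8 of the 10 genes have the same start and end in GENCODE M21 on GRCm38. Coordinates are as deposited. Annotation release, strand use and treatment of reads with several matches: not given in the sources used here. The authors also deposited FPKM values, scaled by gene length and library size, which served for levels between genes and as an alternative.

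Counts were tested with edgeR 4.0.16 in R 4.3.3, after filterByExpr by group (minimum count 10, minimum total 15) and TMM scaling, by the quasi-likelihood test with genotype alone in the model and robust estimation. Benjamini-Hochberg adjustment ran over all genes tested, at 0.05. An SE is the log2 fold change divided by the root of F, and intervals are 95%. Log2 CPM for correlations used a prior count of 2. The members, the lists and the tests were chosen with earlier results of these data known. From each list the 4 genes with the highest mean CPM were named, with Per2, Dbp, Nr1d1, Arntl, Nr3c2, Hsd11b1 and Hsd11b2 in addition, and the 3 genes nearest to Fkbp5, Zbtb16 and Tsc22d3, except some that this rule names and that are not reported here. Other genes, among them Per3, Fkbp4, Klf13 and Klf15, were named after their values were seen. All 183 names matched a row. On simulated data made from these libraries for CKO against control, the tested script recovered 44.0% of 50 genes changed 2-fold and 90.0% of 50 changed 4-fold, over 16266 genes. Alternatives were DESeq2 1.42.0, limma 3.58.1 (voom, and trend on log2 FPKM), other filters and scaling, the replicate number as a block and each library left out.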

Additional observations from a re-analysis of the deposited data

Results flagged for a closer look

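Of 22 groups of 4 libraries examined, the 10 genes and Tia1 in each genotype, 5 held a library farther from the others than Dixon's 95% limit. That limit flags about 1 in 20 groups by chance when the groups are independent. These groups share their libraries, and Zbtb16, Fkbp5 and Plin4 were selected on their CKO levels. The count of 5 therefore cannot be compared with that share. In the library labelled CKO 3, Plin4 stood at 46.6 CPM against 15.4 CPM in the next highest CKO library, and Hif3a at 8.56 against 5.13 CPM. In the library labelled control 1, Hif3a stood at 6.19 CPM against 3.55 CPM, and Pdk4 at 36.8 against 20.5 CPM. Klf9 stood at 66.9 CPM in the library labelled control 3, against 51.5 CPM in the next highest control library. Each was high, and 4 of the 5 lay in the libraries labelled CKO 3 and control 1.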

How the results depend on the processing

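No gene passed under 16 of 17 alternatives, and the DESeq2 Wald test called 1 gene, Saa3 (adjusted p = 0.021 over the 28868 genes for which it gave one). Plin4, Zbtb16, Fkbp5 and Hif3a stayed higher and Per1, Sgk1, Nr3c1 and Tsc22d3 lower in CKO under all 17, and 4 to 6 of the 10 genes had a higher mean. The alternatives reuse the libraries in which Plin4, Zbtb16 and Fkbp5 were selected as higher in CKO, so their sign is in part fixed by that choice. Pdk4 changed sign under 6 alternatives (-0.08 to 0.35) and Klf9 under 2 (-0.11 to 0.18). On the log2(FPKM + 1) scale, which shrinks low genes, Plin4 was 0.80, Zbtb16 0.68 and Hif3a 0.21. Same-numbered libraries correlated at -0.33 to 0.05 in their deviations, so no pairing by replicate number was seen, which does not exclude one. With the replicate number as a block 0 genes passed, and Plin4 was 1.17 and Zbtb16 1.00. Without the libraries labelled control 2 and CKO 4, whose Tia1 lay nearer the other group, left out once values had been seen, 0 genes passed, Fkbp5 was 0.58 and Nr3c1 -0.37.

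No pair with Fkbp5 passed under any of 12 alternatives. With 1 library left out, r ran from -0.41 to 0.54 for Zbtb16, -0.11 to 0.69 for Sgk1, -0.15 to 0.64 for Hif3a, -0.16 to 0.48 for Pdk4 and -0.32 to 0.17 for Nr3c1, so these signs were not fixed, and from 0.83 to 0.95 for Per1. Without control 2 and CKO 4 r was -0.04 for Sgk1, -0.13 for Pdk4 and -0.59 for Nr3c1. Over all 8 libraries, Spearman's rho for Zbtb16 was -0.048. The cause of these changes was not tested. At 4 libraries a group the test found few 1.5-fold changes in simulated data (6.12%), and Hif3a, Zbtb16 and Plin4 rest on the fewest counts.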
